A study of Homo sapiens with 18 samples.

Results

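The 9 genes MPO, ELANE, PRTN3, AZU1, CTSG, BPI, CST7, SRGN and LYZ were followed across 18 arrays of human acute myeloid leukaemia cells. They were chosen by name, as genes of the azurophil granule, with earlier results of these data known. Counts of members called are therefore a description beside the shares of all genes. The members are 9 of 20046 genes that could be named on the array. The group is represented by 11 of 48107 probes, 2 each for SRGN and LYZ and 1 for each of the other genes. For SRGN and LYZ the probe with the higher mean intensity over all arrays was used.

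Azurophil granules are the first granules that a neutrophil precursor makes, at the promyelocyte stage, and they store enzymes that kill ingested microbes. Myeloperoxidase (MPO) turns hydrogen peroxide and chloride into hypochlorous acid, while the serine proteases ELANE, PRTN3 and CTSG digest proteins. Synthesis of this cargo stops as the cells mature, so the transcripts are widely used as signs of the promyelocyte stage. The other members are azurocidin (AZU1), a relative of the proteases without enzyme activity, and BPI, which binds the endotoxin of Gram-negative bacteria. LYZ encodes lysozyme, which cuts bacterial cell walls, SRGN the proteoglycan serglycin that holds cargo in the granule, and CST7 cystatin F, an inhibitor of cysteine cathepsins.

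The cells were of 3 established leukaemia lines: MOLM13, SKM1 and HL-60. Each had been transduced with a lentivirus that carried a hairpin against the branched-chain aminotransferase BCAT1, named shBCAT1-3 in the labels and shBCAT1 here, or with the non-targeting hairpin shNT. Serum made up 10% of the medium of HL-60 and 20% of that of SKM1 and MOLM13. Cells carrying the virus were sorted at 48 h, and 200 ng of total RNA was labelled for a 1-colour Illumina BeadChip. Each of the 6 groups had 3 arrays. A single hairpin against BCAT1 was used, and the labels do not say whether the replicates were separate cultures, so p-values measure only the spread between these arrays.

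The arrays had nearly the same brightness, with medians of 91.0 to 93.1 on the deposited linear intensity scale. BCAT1 itself lay at 135 to 164 with shBCAT1 and 1456 to 1476 with shNT in HL-60, at 121 to 133 and 1207 to 1239 in SKM1, and at 147 to 173 and 1022 to 1144 in MOLM13. The groups did not overlap in any line. The myeloid transcription factor SPI1 (PU.1) was well above the median probe value of 92.1 in every line with shNT, with means of 2264 ± 300 (SD, n = 3) for MOLM13, 1715 ± 237 for HL-60 and 2336 ± 54.3 for SKM1. The probe of the leucocyte antigen PTPRC lay near that median, at 102 ± 15.9, 95.7 ± 3.97 and 95.4 ± 6 in that order. CD33 of the myeloid list was not analysed here.

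With the control hairpin, each line carried its own subset of granule genes. HL-60 was bright for MPO and CTSG and had no ELANE signal above that median, SKM1 was bright for MPO and ELANE with almost no CTSG or CST7, and MOLM13 was bright for the proteases and low for MPO. Differences between lines were tested with limma over the 15291 genes whose brightest group mean exceeded the median of all probe values. All 9 members passed this filter. ELANE passed through SKM1 and MOLM13 and not through HL-60. Of the members, 8 of 9 differed between SKM1 and HL-60, 5 higher and 3 lower in SKM1, where 48.6% of all genes tested were called, 24.6% higher and 24.1% lower. Between MOLM13 and HL-60, 9 of 9 differed, 8 higher and 1 lower in MOLM13, beside 44.2% of all genes, 19.5% higher and 24.7% lower. Between MOLM13 and SKM1, 9 of 9 differed, 7 higher and 2 lower in MOLM13, beside 47.6%, 21.9% higher and 25.8% lower. The 3 comparisons share their shNT arrays.

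MPO read 14254, 14200 and 14426 on the shNT arrays of HL-60, 11329, 11322 and 12417 in SKM1, and 579, 754 and 720 in MOLM13. The lines did not overlap, and MOLM13 stood far below the others, 21.0-fold under HL-60 (adjusted p = 2.61e-21) and 17.2-fold under SKM1 (adjusted p = 1.31e-20). HL-60 and SKM1 lay close together, with a 1.22-fold difference (adjusted p = 0.0139) that was no longer called without SKM1 shNT replicate 1 (adjusted p = 0.0506) or 2 (0.0517). MPO was near the top of the range in HL-60, where 6 probes had a higher mean among the shNT arrays. The brightest probe of each array reached 17382 to 22918, and whether the response flattens near that level was not tested.

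Neutrophil elastase (ELANE) was the reverse case. Its probe read 93, 86 and 82 with shNT in HL-60, around the median of all probes, against 8293, 8463 and 8058 in SKM1 and 12910, 13971 and 14808 in MOLM13. No fold is given against HL-60, whose mean of 86.8 ± 5.33 lay above 29.7% of probes and so at the bottom of the range. MOLM13 exceeded SKM1 by 1.68-fold (adjusted p = 9.62e-09), and 28 probes had a higher mean there.

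Proteinase 3 (PRTN3), the antigen of antibodies in granulomatosis with polyangiitis, read 1740, 2004 and 2353 in HL-60, 8433, 8463 and 8474 in SKM1, and 11126, 11295 and 11304 in MOLM13. AZU1 followed the same order, with 851, 708 and 955 in HL-60, 4110, 4200 and 4044 in SKM1, and 11181, 13740 and 11687 in MOLM13. For both genes the 3 lines were separate. MOLM13 over SKM1 was 1.33-fold for PRTN3 (adjusted p = 0.0011) and 2.95-fold for AZU1 (adjusted p = 1.51e-11), and SKM1 over HL-60 was 4.19-fold and 4.95-fold (adjusted p = 8.13e-15 and 8.01e-15).

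Cathepsin G (CTSG) went against this order. It read 4650, 6052 and 5802 with shNT in HL-60 and 7698, 7138 and 7496 in MOLM13, but 164, 147 and 154 in SKM1, only 1.68 times the median of all probes. SKM1 was thus 35.3-fold below HL-60 and 48.1-fold below MOLM13 on the uncorrected scale. Of the intensity above the median of all probes, SKM1 had 1.16% of that in HL-60, and MOLM13 had 11700% of that in SKM1. HL-60 and MOLM13 differed by 1.36-fold (adjusted p = 0.000635), a call lost with the median of all probes subtracted (0.131). The log2 difference stayed at 0.45 there, while its SE went from 0.1 to 0.22. The fit pools the spread over all 6 groups, the dim SKM1 arrays included. SKM1 therefore had CTSG near the bottom of the range and ELANE far above it, and HL-60 the reverse.

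Cystatin F (CST7) shared the gap in SKM1, at 93, 103 and 93, against 712, 603 and 647 in HL-60 and 2493, 2065 and 2082 in MOLM13. The SKM1 values were at the median of all probes, so the array gave no CST7 signal there. LYZ rose from 200, 176 and 122 in HL-60 to 4432, 4324 and 4056 in SKM1 and 10261, 7369 and 6163 in MOLM13. BPI read 264, 118 and 133 in HL-60, 1531, 1588 and 1517 in SKM1 and 1112, 890 and 879 in MOLM13. It was the one member besides MPO that was higher in SKM1 than in MOLM13 (1.62-fold, adjusted p = 0.00448), a call lost with the median of all probes subtracted (0.316). LYZ was called higher in MOLM13 than in SKM1 (1.82-fold, adjusted p = 9.26e-05), but not with its other probe, at 303 ± 12.2 in SKM1 and 319 ± 46.4 in MOLM13 (log2 difference 0.07, adjusted p = 0.655), nor with the median subtracted (0.0748). For BPI and LYZ the fit with the median subtracted pools the spread over all 6 groups, the dim HL-60 arrays included.

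Serglycin (SRGN) varied least. Its brighter probe read 10853, 9729 and 9634 in HL-60, 9374, 10542 and 9646 in SKM1, and 14509, 14988 and 15239 in MOLM13. HL-60 and SKM1 overlapped, with a log2 difference between -0.21 and 0.15 (95% confidence interval), and MOLM13 lay 1.48-fold above HL-60 and 1.51-fold above SKM1 (adjusted p = 5.6e-06 and 2.43e-06). In MOLM13 only 3 probes had a higher mean, so SRGN stood at the top of the range.

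**Figure D1:**
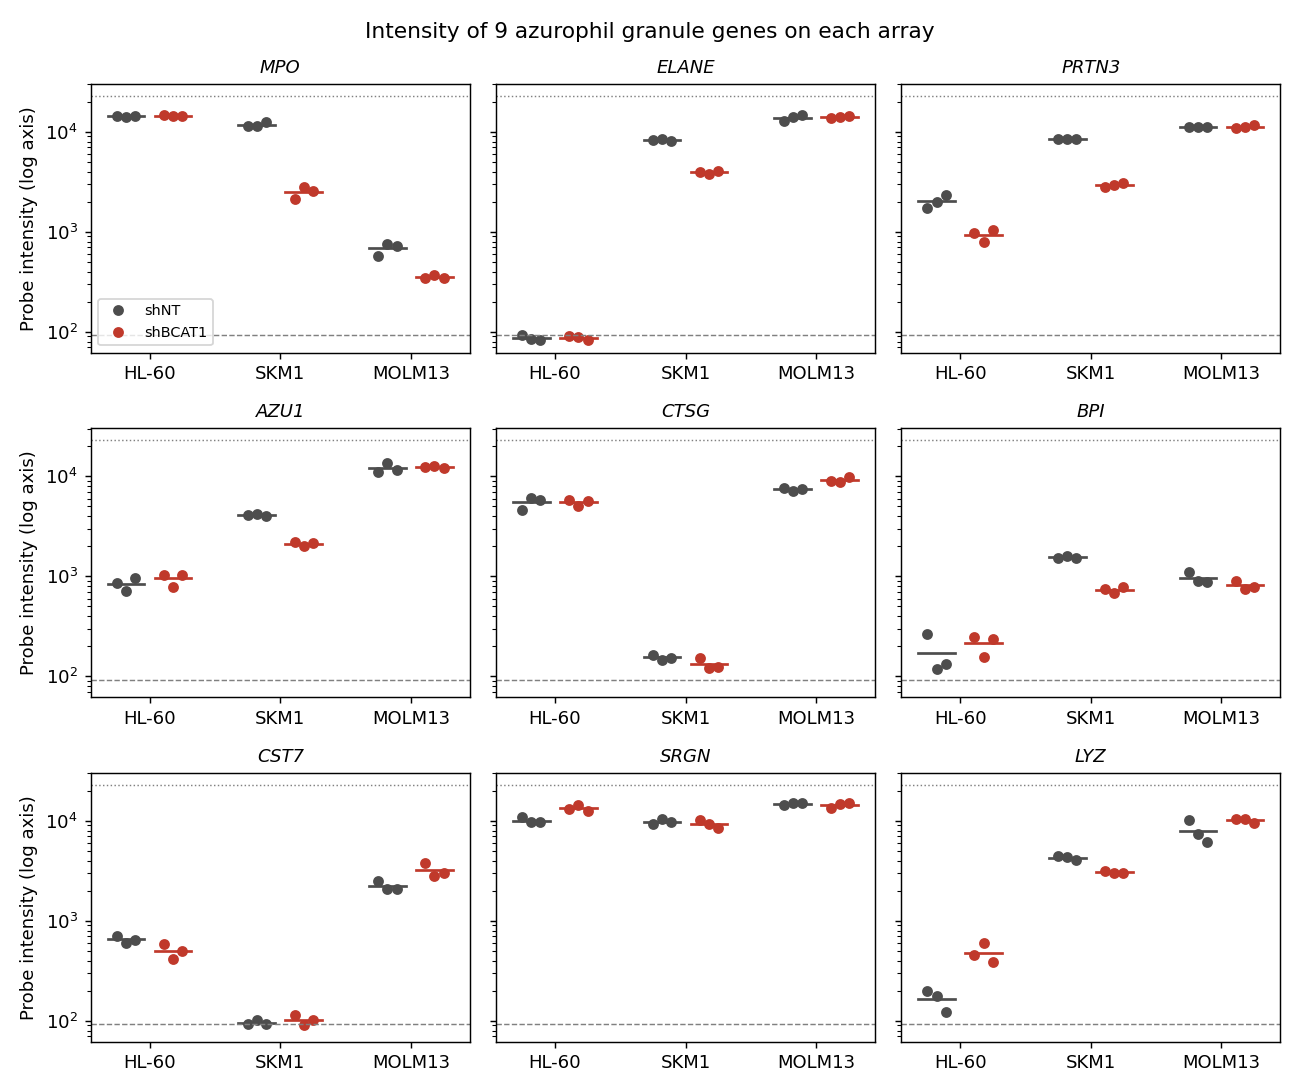
Probe intensity (log axis) of the 9 genes on each of the 18 arrays, with 3 arrays per line and hairpin (grey shNT, red shBCAT1) and a bar at each group mean. The dashed line is the median of all probe values (92.1) and the dotted line the highest value (22917.5). MPO, ELANE, PRTN3, AZU1 and BPI step down with shBCAT1 in SKM1, while ELANE in HL-60 and CST7 in SKM1 lie at the dashed line.

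In SKM1, shBCAT1 lowered most of the granule genes that this line expressed. MPO fell 4.70-fold, PRTN3 2.87-fold, ELANE and BPI 2.10-fold each and AZU1 1.96-fold, with 3 arrays per hairpin. Thus 5 of 9 members were called, all lower, where 11.2% of all genes tested were called, 6.49% lower and 4.67% higher. These 1706 genes became 3114 with array weights, with 7 members called, and 3004 with the SKM1 arrays alone, with 6. The median log2 fold change of the 9 genes was -0.97, against 0 over all genes tested. In RNA from bulk cultures, fewer cells of a kind and less RNA per cell cannot be told apart.

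MPO dropped from 11329, 11322 and 12417 with shNT to 2146, 2785 and 2564 with shBCAT1. Its log2 fold change of -2.23 (SE 0.10, limma adjusted p = 7.9e-14) was the 4th largest fall among 15291 genes. Of the intensity above the median of all probes, 20.8% remained.

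The proteases dropped by smaller steps. PRTN3 went from 8433, 8463 and 8474 to 2839, 2931 and 3079 (log2 fold change -1.52, SE 0.10, adjusted p = 1.47e-10). ELANE went from 8293, 8463 and 8058 to 3967, 3763 and 4061 (-1.07, SE 0.08, adjusted p = 4.28e-10). For both, the arrays of the hairpins were far apart and tightly grouped. AZU1 went from 4110, 4200 and 4044 to 2189, 1993 and 2139 (-0.97, SE 0.11, adjusted p = 8.37e-07). CTSG, already dim in this line, was 154.9 ± 8.36 with shNT and 132 ± 17.3 with shBCAT1, with overlapping arrays (-0.23, adjusted p = 0.163). It was called lower without shBCAT1 replicate 1 (-0.34, adjusted p = 0.0465) and with array weights (-0.25, adjusted p = 0.0208).

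Among the remaining cargo, BPI went from 1531, 1588 and 1517 to 743, 686 and 786 (log2 fold change -1.07, SE 0.20, adjusted p = 0.000453). The call was lost when the median of all probes was subtracted first (-1.17, adjusted p = 0.227). The BPI fall was then no smaller, but its SE was 0.52. The fit pools the spread over all 6 groups, and BPI read as low as 118 in HL-60 with shNT. LYZ was lower on every shBCAT1 array, at 3175, 3021 and 3015 against 4432, 4324 and 4056, but was not called (-0.48, SE 0.16, adjusted p = 0.065). It was called when the SKM1 arrays were fitted alone (adjusted p = 4.35e-05), and without any 1 of 5 arrays of the other lines, with adjusted p between 0.025 and 0.0468. Those arrays are HL-60 shBCAT1 replicate 2, HL-60 shNT replicates 1 and 3, and MOLM13 shNT replicates 1 and 3. SRGN overlapped between hairpins, with a 95% confidence interval of -0.26 to 0.10 for the log2 fold change, and CST7 stayed at the median of all probes.

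In HL-60, PRTN3 and CST7 fell and SRGN and the brighter LYZ probe rose. Of the 9 members, 2 were called higher and 2 lower, where 10% and 8.87% of all genes tested were, or 18.9% in either direction. MPO, the brightest member here, read 14254, 14200 and 14426 with shNT and 14816, 14431 and 14282 with shBCAT1. These overlap, with a 95% confidence interval of -0.18 to 0.22 for the log2 fold change at the top of the intensity range.

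PRTN3 went from 1740, 2004 and 2353 to 981, 793 and 1040, a 2.16-fold fall (log2 fold change -1.11, SE 0.10, adjusted p = 1.51e-08). Its neighbour AZU1 did not follow. AZU1 read 851, 708 and 955 with shNT and 1034, 781 and 1043 with shBCAT1 (0.18, 95% confidence interval -0.04 to 0.41, adjusted p = 0.291), and was called higher without shBCAT1 replicate 2 (0.32, adjusted p = 0.0396). CTSG overlapped as well (0.02, -0.18 to 0.23), and ELANE stayed at 82 to 93 with both hairpins.

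LYZ read 200, 176 and 122 with shNT and 454, 601 and 390 with shBCAT1 in HL-60, a 2.91-fold rise of the brighter probe (log2 fold change 1.54, SE 0.16, adjusted p = 2.5e-07). The shNT mean was only 1.81 times the median of all probes. Of the intensity above that median, shBCAT1 had 525% of that with shNT. The other LYZ probe did not show the rise, at 100 ± 7.49 with shNT and 100.5 ± 10.6 with shBCAT1, close to the median of all probes (log2 fold change 0, adjusted p = 0.987). The rise thus rests on the brighter probe. SRGN rose from 10853, 9729 and 9634 to 13252, 14566 and 12486 (1.33-fold, adjusted p = 0.00101), and its other probe also rose, by 0.28 on the log2 scale (adjusted p = 0.0191).

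CST7 was lower in HL-60, at 584, 417 and 499 against 712, 603 and 647 (1.32-fold, adjusted p = 0.0206). This call was weak. It was lost without shBCAT1 replicate 2 (adjusted p = 0.149) and without shNT replicate 1 (0.0913). BPI was not called, at 247, 158 and 235 against 264, 118 and 133 (log2 fold change 0.38, adjusted p = 0.205). A single shNT array, replicate 1, was as bright as the brightest shBCAT1 array. Without it BPI was called higher (0.74, adjusted p = 0.000579), as it was without shBCAT1 replicate 2 (0.58, adjusted p = 0.0487).

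In MOLM13, MPO fell and the clustered proteases did not move. MPO went from 579, 754 and 720 to 350, 372 and 349, a 1.90-fold fall (log2 fold change -0.93, SE 0.10, adjusted p = 1.67e-07). The hairpins did not overlap, and 44.8% of the intensity above the median of all probes remained. CTSG and CST7 were called higher. With these, 3 of 9 members were called, 2 higher and 1 lower, where 10.3% and 10.7% of all genes tested were called in those directions, 21% in all.

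ELANE, PRTN3 and AZU1 overlapped between hairpins in MOLM13. ELANE read 12910, 13971 and 14808 with shNT and 13865, 14177 and 14365 with shBCAT1, and its log2 fold change lay between -0.13 and 0.18 (95% confidence interval). The interval was -0.19 to 0.21 for PRTN3 and -0.20 to 0.25 for AZU1. All 3 were bright, with 28, 215 and 134 probes of higher mean on the shNT arrays, and whether the response flattens there was not tested.

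CTSG went from 7698, 7138 and 7496 to 9034, 8879 and 9817 in MOLM13, a 1.24-fold rise (adjusted p = 0.0267). This call was lost without shBCAT1 replicate 3 (adjusted p = 0.106), shNT replicate 2 (0.104) or shNT replicate 3 (0.059). CST7 rose from 2493, 2065 and 2082 to 3805, 2840 and 3045 (1.45-fold, adjusted p = 0.00176). BPI overlapped (95% confidence interval of the log2 fold change -0.64 to 0.17), as did SRGN (-0.23 to 0.13).

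LYZ in MOLM13 depended on the probe. The brighter one read 10261, 7369 and 6163 with shNT and 10481, 10356 and 9496 with shBCAT1 and was not called (0.38, adjusted p = 0.109). The shNT arrays were widely spread, with replicate 1 inside the shBCAT1 range. It was called without that array (0.58, adjusted p = 0.0076) and with the replicate number as a block (0.38, adjusted p = 0.0169). The other probe went from 319 ± 46.4 to 629 ± 72.5, a log2 fold change of 0.98 (adjusted p = 1.85e-07).

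**Figure D2:**
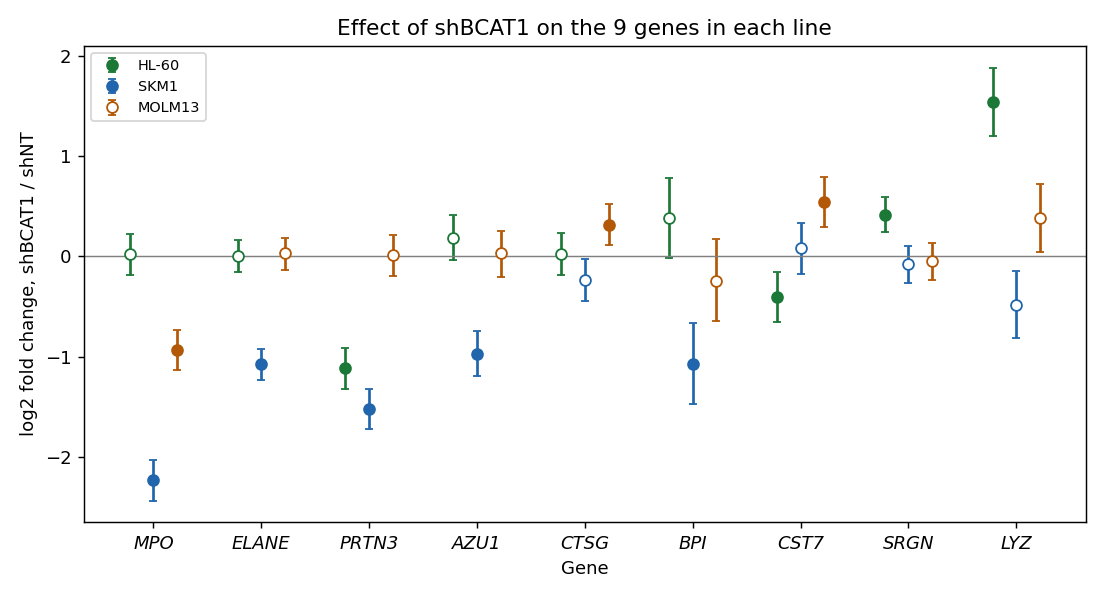
Log2 fold change of shBCAT1 over shNT for each of the 9 genes in HL-60 (green), SKM1 (blue) and MOLM13 (orange), with 95% confidence intervals from the fit over 18 arrays. Filled points passed the test over all genes. SKM1 holds 5 filled points, all below 0, and no gene has filled points below 0 in all 3 lines.

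**Figure D3:**
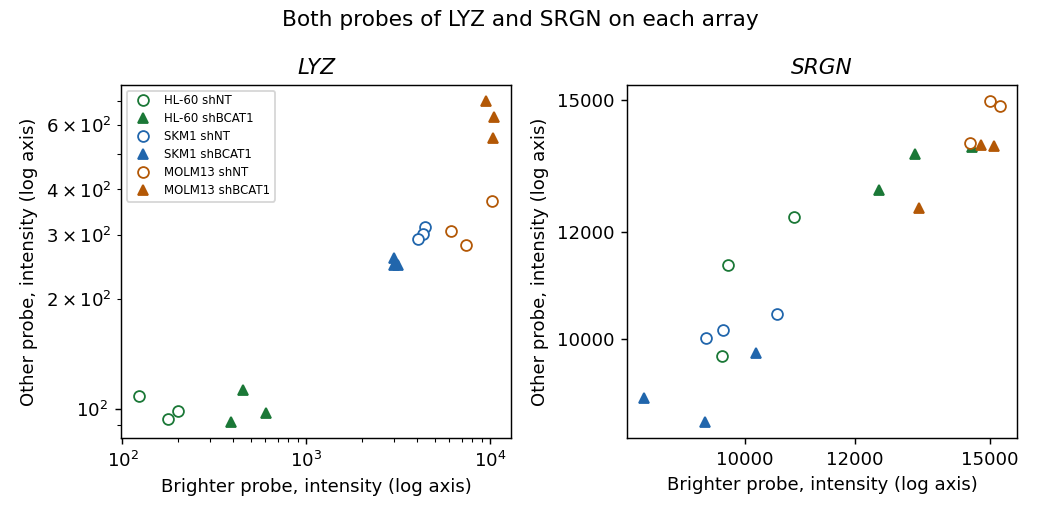
Intensity of the brighter probe (x, log axis) against the other probe (y, log axis) of LYZ and SRGN, 1 point per array, with open circles for shNT and filled triangles for shBCAT1. For LYZ the HL-60 arrays spread along x while y stays near 100, and the MOLM13 shBCAT1 arrays stand at 555 to 700 on y. With shNT, both SRGN probes are highest in MOLM13.

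The hairpin effect differed between the lines for all 9 members by an F test over the differences of the 3 line effects, a call made for 18% of all genes tested. The smallest adjusted p was that of MPO (4.88e-10) and the largest that of CTSG (0.0233). CTSG lost the call without any of 5 single arrays, with adjusted p up to 0.0689. BPI lost it with the median of all probes subtracted (0.152).

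Pairwise, the log2 fold change of MPO in SKM1 minus that in HL-60 was -2.25 (SE 0.14, adjusted p = 1.52e-10), and that in MOLM13 minus that in SKM1 was 1.30 (adjusted p = 7.71e-07). MOLM13 minus HL-60 was -0.95 (adjusted p = 3.09e-05). For ELANE, MOLM13 minus SKM1 was 1.10 (adjusted p = 2.87e-07), and for AZU1 it was 0.99 (adjusted p = 0.000116). MPO in HL-60 and ELANE, PRTN3 and AZU1 in MOLM13 were bright and not called. Whether a response that flattens there adds to the differences was not tested. PRTN3 separated MOLM13 from both other lines (1.12 against HL-60, adjusted p = 5.09e-06, and 1.53 against SKM1, adjusted p = 1.19e-07), while SKM1 and HL-60 were not called different (-0.41, adjusted p = 0.0899). That difference was called with array weights (-0.42, adjusted p = 0.0266), without HL-60 shBCAT1 replicate 2 (-0.52, 0.0147) and without HL-60 shNT replicate 3 (-0.52, 0.0207).

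SKM1 minus HL-60 was called for 6 of 9 members, all lower, where 6.4% of all genes were called, 4.34% lower and 2.07% higher. MOLM13 minus HL-60 was called for 5 of 9, 2 higher and 3 lower, beside 14.6%, 6.57% higher and 8.02% lower. MOLM13 minus SKM1 was called for 6 of 9, all higher, beside 10.1%, 5.36% higher and 4.75% lower. CTSG, dim in SKM1, is among these 6 (0.54, adjusted p = 0.0126). Among the 6 of SKM1 minus HL-60 is ELANE (-1.08, adjusted p = 6.76e-07), which lay at the median of all probes in HL-60 and could not have been seen to fall there, so its difference repeats the fall in SKM1. BPI is another (-1.45, adjusted p = 0.00155). With shNT in HL-60 it was at 1.86 times that median and had little room to fall. LYZ depended on the probe: SKM1 minus HL-60 was -2.02 (adjusted p = 4.59e-06) with the brighter one and -0.27 (adjusted p = 0.342) with the other, and MOLM13 minus HL-60, 1 of the 3 counted as lower, turned from -1.16 (adjusted p = 0.00111) to 0.98 (adjusted p = 4.71e-05). In HL-60 that other probe read 100.1 with shNT and 100.5 with shBCAT1, close to the median of all probes. Its differences from HL-60 thus repeat its changes in SKM1 and MOLM13. With shNT it was also far dimmer than the brighter probe in SKM1, at 303 against 4271. Whether it could have shown the rise in HL-60 was not tested. CST7 moved in opposite directions in HL-60 and MOLM13, with a difference of 0.94 (adjusted p = 0.000429). The rise of SRGN in HL-60 differed from its value in SKM1 (-0.49, adjusted p = 0.0133) and in MOLM13 (-0.47, adjusted p = 0.0106). Without SKM1 shBCAT1 replicate 3 or shNT replicate 2 the first of these was not called (0.0543 and 0.0504).

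AZU1, PRTN3 and ELANE stand side by side on chromosome 19 in the RefSeq gene order of GRCh38.p14, between PLPPR3 and CFD. CFD encodes complement factor D, another serine protease. In SKM1 the run of 5 genes from PLPPR3 to CFD was lower with shBCAT1. CFD fell 1.69-fold there, from 3179 to 1883 (adjusted p = 8.11e-08), and PLPPR3 2.02-fold, from 293.5 to 145 (adjusted p = 3.06e-06). The flanking genes were not called in SKM1: PTBP1, a splicing regulator, had a log2 fold change of -0.24 (adjusted p = 0.0599) and MED16, a Mediator subunit, -0.03 (0.939). In MOLM13 both were called lower, PTBP1 with -0.48 (adjusted p = 8.01e-05) and MED16 with -0.4 (0.00852). Neither was called in HL-60.

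CFD resembled AZU1 in the other lines too. It was 765.5 with shNT and 857 with shBCAT1 in HL-60 (0.16, adjusted p = 0.139), and 11320 and 11750 in MOLM13 (0.05, adjusted p = 0.711). PLPPR3 fell in all 3 lines, by 0.76 in HL-60 and 0.51 in MOLM13 on the log2 scale (adjusted p = 7.92e-05 and 0.0045). Within this run HL-60 therefore had falls of PLPPR3 and PRTN3 with no called change of AZU1, between them, or of CFD.

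Near MPO on chromosome 17, the peroxidase genes EPX and LPO had group means of 84 to 129, near the median of all probes. EPX was called higher in HL-60, from 100.4 to 124 (adjusted p = 0.0262). SUPT4H1, a transcription elongation factor gene separated from MPO by TSPOAP1, fell 1.74-fold in SKM1 (adjusted p = 5.01e-07) and 1.40-fold in HL-60 (adjusted p = 0.000196). In MOLM13, where MPO fell, SUPT4H1 was not called (-0.11, adjusted p = 0.472). The granzyme neighbours of CTSG on chromosome 14, GZMH and GZMB, and the chymase gene CMA1 lay at 77 to 103 in every group.

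Promoters of 3 members were found in the RefSeq table of GRCh38.p14, covering 250 bases before and 50 after the gene start. No promoter of the other members, ELANE and MPO among them, was available. AZU1 and PRTN3 fell together in SKM1 and parted in HL-60, whereas CTSG was not called in either. Capitals mark matches, on either strand, to short motifs of factors known to act on granule genes: TTNNGNAA for C/EBP, GAGGAA for PU.1, TGNGGT for RUNX and AACNG for MYB, where N is any base. None of the printed matches overlap.
AZU1, chr19:827587-827886, plus strand: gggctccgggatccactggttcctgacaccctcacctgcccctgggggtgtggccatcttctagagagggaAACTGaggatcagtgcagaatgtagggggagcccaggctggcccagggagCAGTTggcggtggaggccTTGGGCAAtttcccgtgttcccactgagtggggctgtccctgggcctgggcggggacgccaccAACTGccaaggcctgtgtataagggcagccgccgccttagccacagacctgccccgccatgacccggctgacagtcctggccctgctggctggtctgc
PRTN3, chr19:840749-841048, plus strand: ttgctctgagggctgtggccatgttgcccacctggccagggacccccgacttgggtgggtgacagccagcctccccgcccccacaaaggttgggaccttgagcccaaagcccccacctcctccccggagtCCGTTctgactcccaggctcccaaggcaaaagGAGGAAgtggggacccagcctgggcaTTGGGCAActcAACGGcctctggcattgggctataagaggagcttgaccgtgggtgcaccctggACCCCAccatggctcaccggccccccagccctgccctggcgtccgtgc
CTSG, chr14:24576201-24576500, minus strand: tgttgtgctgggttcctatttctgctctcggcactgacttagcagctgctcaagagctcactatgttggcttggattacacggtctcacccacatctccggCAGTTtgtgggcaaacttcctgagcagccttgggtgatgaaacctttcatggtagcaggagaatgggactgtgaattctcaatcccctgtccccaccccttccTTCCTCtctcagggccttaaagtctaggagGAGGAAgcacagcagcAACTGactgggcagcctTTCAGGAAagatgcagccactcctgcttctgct

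The same 8 letters, TTGGGCAA, match the C/EBP motif in AZU1, from 111 to 104 bases before the start, and in PRTN3, from 62 to 55 before it. Each promoter also has a MYB match close to the start, from 48 to 44 bases before it in AZU1 and from 51 to 47 in PRTN3. PRTN3 and CTSG hold the PU.1 letters and AZU1 does not. CTSG also holds a C/EBP match, at bases 18 to 25 counted from the start, and a MYB match at bases 1 to 5. Of these promoters, only that of PRTN3 holds the RUNX letters, at bases 3 to 8. Such short motifs are common: of 35116 promoters of this length, 36.8% hold the C/EBP letters, 27.9% those of PU.1, 43.2% those of RUNX and 77.2% those of MYB. A match describes the letters of the window and not binding.

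Listed regulators of granule genes were examined in the same way. MYB is a progenitor transcription factor known from the mouse to act on the elastase gene. It went from 3580 ± 247 (SD, n = 3) with shNT to 1820 ± 151 with shBCAT1 in SKM1 (1.97-fold, adjusted p = 2.66e-06). It was not called in HL-60 (log2 fold change -0.14, adjusted p = 0.478) or MOLM13 (-0.28, adjusted p = 0.106). IRF8, which favours monocytes over neutrophils, fell 2.57-fold in SKM1 (adjusted p = 3.1e-10) and 1.27-fold in MOLM13 (0.00823). The repressor GFI1, needed for neutrophil precursors, fell 1.39-fold in SKM1 (adjusted p = 0.000148) and was not called in HL-60 (0.04) or MOLM13 (-0.11). EGR1 was the 1 regulator called higher in SKM1 (2.14-fold, adjusted p = 0.00888). It also rose 1.76-fold in HL-60 (adjusted p = 0.0398) and fell 3.27-fold in MOLM13 (5.62e-05). Its shNT arrays were widely spread in these lines, at 792.5 ± 519 and 1053 ± 354. GATA2 rose 1.7-fold in HL-60 (adjusted p = 0.000139), fell 1.85-fold in MOLM13 (2.14e-05) and lay below the median of all probes in SKM1. Differences of these effects between lines were not tested for the regulators. MYC, which drives growth of early precursors, fell 2.16-fold in HL-60 (adjusted p = 4.81e-08) and 1.30-fold in SKM1 (adjusted p = 0.0176), and was not called in MOLM13 (-0.16, adjusted p = 0.341). Of 18 regulators tested, 6 fell and 1 rose in SKM1, 3 fell and 5 rose in HL-60, and 4 fell and 2 rose in MOLM13. Over all genes tested, 6.49% fell and 4.67% rose in SKM1, 8.87% and 10% in HL-60 and 10.7% and 10.3% in MOLM13. The list's median log2 fold changes were -0.11, 0.10 and -0.09, against 0 over all genes in each line.

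Among the C/EBP and PU.1 genes, CEBPA, the main C/EBP factor of the promyelocyte, was not called in any line, with log2 fold changes of -0.06 in HL-60, -0.34 in SKM1 (adjusted p = 0.0758) and 0.12 in MOLM13. CEBPE, the factor of later granules, was not called either. CEBPD fell 1.21-fold in SKM1 (adjusted p = 0.0134) and was not called in HL-60 or MOLM13 (0.10 in both). CEBPB rose 1.39-fold in HL-60 and 1.49-fold in MOLM13 (adjusted p = 0.000573 and 6.39e-05). SPI1 rose 1.53-fold in HL-60 (adjusted p = 0.000149) and was not called in SKM1 (-0.09) or MOLM13 (-0.10). With shNT, CEBPE read 3579 ± 349 in HL-60, more than the 1116 ± 112 of SKM1 and the 166 ± 16.5 of MOLM13. CEBPA and CEBPD stood in the opposite order. In HL-60, SKM1 and MOLM13, CEBPA read 1777 ± 343, 4082 ± 408 and 7063 ± 1050, and CEBPD 592 ± 28.9, 2044 ± 98.6 and 4148 ± 91.6.

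**Figure D4:**
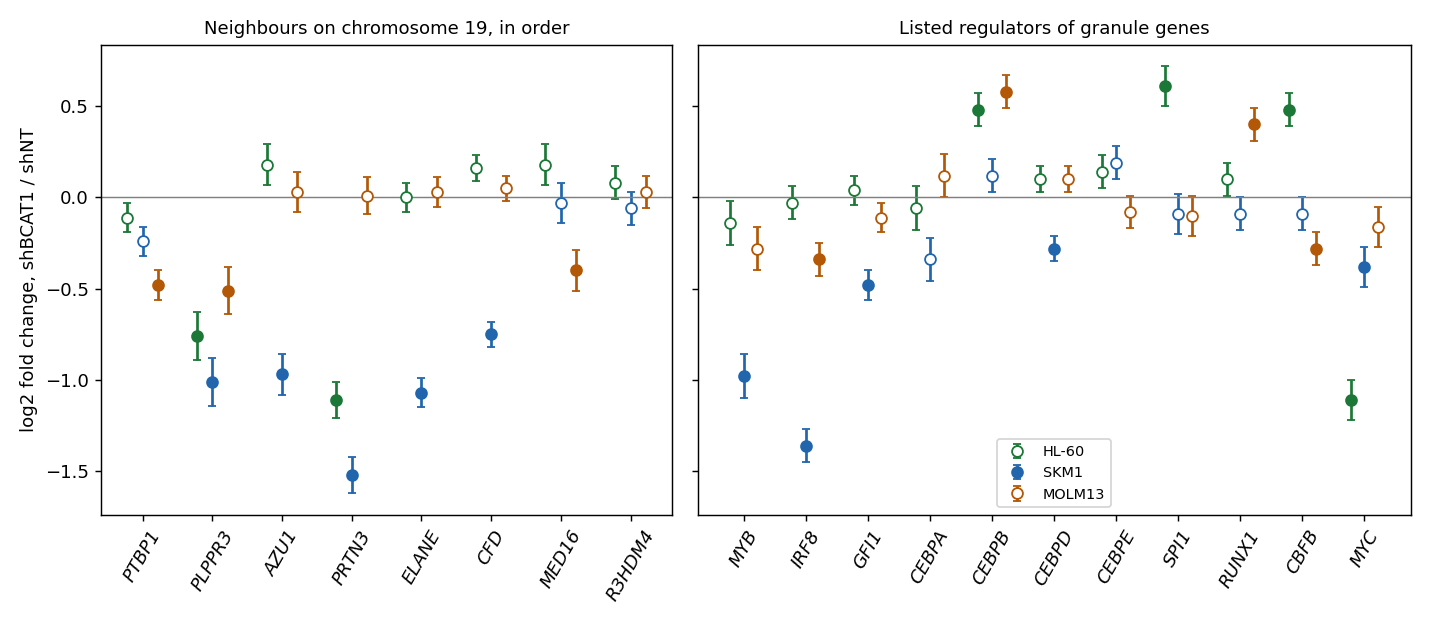
Log2 fold change of shBCAT1 over shNT with its standard error in HL-60 (green), SKM1 (blue) and MOLM13 (orange), for the genes from PTBP1 to R3HDM4 in chromosome order (left) and for 11 of the listed regulators (right). Filled points passed the test over all genes. In SKM1 the points from PLPPR3 to CFD lie between -1.52 and -0.75, with MED16 and R3HDM4 beside 0. Among the regulators not drawn are EGR1 and GATA2.

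Genes that process the cargo were counted next. CTSC encodes dipeptidyl peptidase 1, which activates the granule serine proteases by trimming their ends, and it was not called in any line (-0.20 in HL-60, -0.30 in SKM1 with adjusted p = 0.0602, and 0.15 in MOLM13). Calnexin (CANX), a chaperone that binds new MPO in the endoplasmic reticulum, fell in all lines, 1.95-fold in HL-60 (adjusted p = 1.51e-09), 2.42-fold in SKM1 (1.96e-11) and 1.80-fold in MOLM13 (1.13e-08). Its partner calreticulin (CALR) fell in SKM1 (-0.49, adjusted p = 0.000176) and MOLM13 (-0.64, adjusted p = 3.27e-06). CALR was not called in HL-60 (0.03, adjusted p = 0.883). Differences of the CANX and CALR effects between lines were not tested. Of 12 tested genes of MPO maturation and haem synthesis, 3 fell and 2 rose in HL-60, 2 fell in SKM1, and 3 fell and 1 rose in MOLM13. Over all genes tested, 18.9%, 11.2% and 21% were called in these lines.

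Of 18 genes of protease activation and granule traffic, 5 rose and none fell in HL-60, 2 rose and 3 fell in SKM1, and 2 rose and 1 fell in MOLM13, beside the same 18.9%, 11.2% and 21%. The MOLM13 count is no larger a share than that of all genes. IGF2R, the receptor that carries mannose 6-phosphate tagged enzymes, rose 1.38-fold in HL-60 and 1.23-fold in SKM1 (adjusted p = 6.9e-05 and 0.0111). The adaptor subunit AP3B1, needed to sort elastase, fell 1.41-fold in SKM1 and 1.35-fold in MOLM13 (adjusted p = 0.00021 and 0.000488).

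Protease inhibitors were called in both directions. SERPINB1, the cytosolic inhibitor of elastase, proteinase 3 and cathepsin G, rose in all lines, 1.67-fold in HL-60, 1.49-fold in SKM1 and 1.22-fold in MOLM13 (adjusted p = 5.2e-06, 0.000242 and 0.0408). SLPI, a secreted elastase inhibitor, fell 1.56-fold in SKM1 (adjusted p = 5.56e-06) and rose 1.19-fold in MOLM13 (adjusted p = 0.0338). SERPINA1, the plasma inhibitor of elastase, rose 1.73-fold in SKM1 (adjusted p = 1.06e-06). Of 10 inhibitors tested, 5 rose and 1 fell in HL-60, 4 rose and 3 fell in SKM1, and 6 rose and none fell in MOLM13, with medians of 0.22, 0.04 and 0.27 against 0 and the same shares of all genes called.

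A list of other azurophil cargo held lysosomal proteins, PRSS57 and the defensins, and DEFA1, DEFA1B, DEFA3 and DEFA4 were too dim to be tested. Of 11 tested, 4 rose in HL-60 and 6 in MOLM13 with no fall, while 1 rose and 2 fell in SKM1, beside the same shares of all genes. Cathepsin D (CTSD) rose in all lines, 2.17-fold in HL-60, 1.49-fold in SKM1 and 2.37-fold in MOLM13 (adjusted p = 7.43e-07, 0.00354 and 1.67e-07). PRSS57, a further neutrophil serine protease, was bright only in MOLM13 among the lines (9577 with shNT, against 303 in HL-60 and 113 in SKM1) and was not called in any line.

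Markers of other cell types were examined beside these changes. Over all genes tested, 10% rose and 8.87% fell in HL-60, 4.67% and 6.49% in SKM1, and 10.3% and 10.7% in MOLM13. In SKM1, 2 of 5 monocyte and macrophage markers fell and none rose, and their summed intensity went from 1370 to 1503 with shNT to 922 to 960 with shBCAT1. The fall was mainly that of the receptor CSF1R (947 to 434), while CD14 and CD163 were at 82 to 95. In HL-60 and MOLM13, 1 of 5 rose, and the sums were 447 to 458 against 488.5 to 515 and 1559 to 1674 against 1935 to 2243. Myeloid markers rose in 4 of 5 cases in HL-60, 3 of 5 in SKM1 and 1 of 5 in MOLM13. Their sums were 2200 to 2784 with shNT and 4084 to 4253 with shBCAT1 in HL-60, 5342 to 5658 and 6963 to 7136 in SKM1, and 4893 to 5898 and 5819 to 6394 in MOLM13. The 4 erythroid and megakaryocytic markers tested summed to 353 to 414.5 in all groups, with 1 called higher in HL-60, and PF4 and HBG1 were below the median of all probes. Of 5 lymphoid markers, 2 rose in HL-60 and 2 rose and 1 fell in MOLM13, and of 2 mast cell markers 1 rose in HL-60 and 1 fell in MOLM13. Of 3 epithelial markers 1, EPCAM, was well above the median in SKM1, where it fell from 1473 to 1208 (adjusted p = 0.0317). The part of these shifts in the granule genes was not tested.

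As a description, genes most like each member were ranked by Pearson's r of log2 intensity over the 18 arrays, which is led by differences between the lines. CFD was most like AZU1 (r = 0.995), followed by NAPSB and CEBPD (both 0.983). The kinase gene MAP4K1 was most like MPO (0.987), RPS27L most like PRTN3 (0.988), GAB2 most like CST7 (0.996), PPP1R27 most like CTSG (0.995), SLC29A4 most like BPI (0.977), VPS28 and CA2 most like LYZ (both 0.981) and LGALS1 most like SRGN (0.951). For ELANE the Y-linked ribosomal protein gene RPS4Y1 led (0.999), followed by CPNE3 (0.998) and PDLIM1 (0.997).

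With the mean of each line subtracted, so that the hairpin and replicate spread remained, other genes led. PRG2, an eosinophil granule protein, was most like ELANE (r = 0.986 over 18 arrays), TMEM45A most like MPO (0.970) and SPIRE1 most like PRTN3 (0.978). ELANE and PRG2 were called only in SKM1 (log2 fold changes -1.07 and -2.45), so their r is led by that line. BCL11A, a progenitor transcription factor, was the third for PRTN3 (0.952). For LYZ the leading genes were CXXC5 (0.933) and the Fc receptor FCGR2A (0.926). The others were led by SH3GL3 for AZU1 (0.941), TRAF3IP2 for CST7 (0.915), COQ2 for SRGN (0.901), HLX for BPI (0.893) and AQP8 for CTSG (0.825).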

How the data were processed

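Per the labels' protocols, total RNA from 3 cell lines was amplified and biotin-labelled for a 1-colour array. The deposited table holds intensities without a log; the authors' scanner software, background treatment and normalization are not given in the sources used here. Values ran from 60.4 to 22917.5, and 15 in 7 probes were missing. The number of arrays, 3 per group, limits the precision. The platform annotation gave 1 symbol for 30113 probes, several for 8 and, as far as used here, none for 17986.

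Here the brightest probe of each gene was taken to log2, and limma 3.58.1 (R 4.3.3) estimated the means of all 6 groups together (12 residual and 10.8 prior degrees of freedom). P-values were adjusted by Benjamini-Hochberg over 15291 genes, with calls at 0.05, and 4755 dimmer genes were left out. The procedure was tested on simulated data. Members and lists were chosen with earlier results of these data known. Named list genes were among the 4 smallest p of a line, or neighbours, markers or genes behind a count; CTSC, CEBPA, CEBPE and PRSS57 were chosen after their values were seen. Alternatives were quantile normalization, normexp (offset 50), the median subtracted (floor 16), no filter, a filter at 2 times the median, all probes averaged, array weights, separate fits, a replicate block and each array left out; the other probe of LYZ and SRGN was added after seeing the data. Deviations of same-numbered arrays correlated at -0.14 to 0.38, above 0.1 in 4 of 9 pairs. Plots used matplotlib 3.10.9.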

Additional observations from a re-analysis of the deposited data

Results flagged for a closer look

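All 9 members were singled out because the effect of shBCAT1 differed between HL-60, SKM1 and MOLM13 by limma's F test over the differences of the line effects. The adjusted p was 4.88e-10 for MPO, 1.01e-07 for ELANE, 1.68e-07 for PRTN3, 1.46e-05 for AZU1, 5.04e-06 for LYZ, 0.0011 for CST7, 0.00179 for BPI, 0.00666 for SRGN and 0.0233 for CTSG. For ELANE the HL-60 arrays and for CST7 the SKM1 arrays lay at the median of all probes, so a fall there could not have been seen. CTSG in SKM1, LYZ in HL-60 and BPI in HL-60 had little room to fall, at 1.68, 1.81 and 1.86 times that median with shNT. MPO in HL-60 and ELANE in MOLM13 were near the top of the range.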

How the results depend on the processing

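Counts of called members, pairwise differences included, stayed within 1.5 times of those given under each alternative run. Leaving out single arrays gave 4 to 5 in HL-60, 5 to 6 in SKM1, 2 to 4 in MOLM13 and 8 to 9 for the difference between lines, and 5 to 7, 5 to 7 and 5 to 8 for SKM1 minus HL-60, MOLM13 minus HL-60 and MOLM13 minus SKM1. Of 2511 recomputed values of single members, 2436 kept direction and side of the threshold, 43 passed it newly, 31 no longer passed and 1 turned. With the other probe, LYZ in MOLM13 minus HL-60 turned from -1.16 to 0.98 (adjusted p = 4.71e-05). That probe lay close to the median of all probes in HL-60, so this value repeats its rise in MOLM13. With the replicate block, members called were 5, 6 and 4 in HL-60, SKM1 and MOLM13. BPI was then called in HL-60 (adjusted p = 0.0251), LYZ in SKM1 (0.00663) and LYZ in MOLM13 (0.0169), but the numbers did not pair the arrays outside MOLM13. Over all genes, 1706 were called in SKM1, against 3114 with array weights and 3004 with the SKM1 arrays alone, and 1546 for MOLM13 minus SKM1, against 2736 with array weights. With the median subtracted, CTSG was not called in MOLM13 (adjusted p = 0.413), CST7 in HL-60 (0.0633) or CTSG by the F test (0.0762). The CTSG log2 fold change in MOLM13 was then 0.32, against 0.31 before, with an SE of 0.22 against 0.1. Subtraction widens the log2 spread of arrays near the median, and the fit pools this spread over all 6 groups. Of 47 called members and list genes in HL-60, CAMP alone turned direction there; none of 42 in SKM1 or 45 in MOLM13 did, nor any with quantile normalization or normexp. Probes near the median of all values limit ELANE, BPI and LYZ in HL-60 and CST7 and CTSG in SKM1. Probes near the top limit MPO in HL-60 and SRGN and ELANE in MOLM13.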

Other observations

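Granule proteins of other classes were counted beside the 9 genes. Of 13 tested genes of specific granules and the S100 family, 7 rose and none fell in MOLM13, 3 rose in HL-60 (among them CAMP, which turned direction with the median of all probes subtracted), and 1 rose and 1 fell in SKM1. Of all genes tested, 10.3% rose in MOLM13, 10% rose in HL-60 and 11.2% were called in SKM1. In MOLM13 the calgranulin S100A8 rose 4.42-fold, haptoglobin (HP) 3.63-fold and the cathelicidin CAMP 2.62-fold (adjusted p = 1.84e-11, 5.85e-10 and 9.21e-12). Among eosinophil granule genes, the ribonuclease RNASE2 fell 1.65-fold in SKM1 (adjusted p = 6.68e-07) and rose 1.45-fold in HL-60 (2.54e-05) and 1.2-fold in MOLM13 (0.0215). PRG2 fell 5.48-fold in SKM1, from 1171 to 214 (adjusted p = 7.44e-16), and read 13490 to 13860 near the top of the range in HL-60 and MOLM13, where it was not called.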
